A study of Macaca mulatta with 102 samples.

Results

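The transcript described here is LGB2, which encodes beta-lactoglobulin and carries the Ensembl identifier ENSMMUT00000047130. It was chosen by name and position as 1 of the 42701 transcripts with a value in rhesus macaque milk and mammary tissue. In the rheMac2 assembly its locus lies on chromosome 15, from base 2731645 to base 2735903, a span of 4259 bases. The table of values gives no strand and no exons, and no other transcript has a locus that overlaps this span. By level, LGB2 had rank 2 in 2 of the 34 samples, rank 3 in 24, rank 4 in 6, rank 5 in 1 and rank 6 in 1.

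Beta-lactoglobulin is a small secreted protein of the lipocalin family, which binds retinol and fatty acids in a barrel-shaped pocket. It is the main whey protein of cow's milk and is also found in macaque milk, but human milk lacks it. In humans the related gene, PAEP, is known for glycodelin, a protein secreted by the lining of the uterus. The reference gene list at hand gives the name PAEP to 2 macaque Ensembl genes without tying either to a transcript, so reads shared between LGB2 and a related copy were not tested. Milk proteins are made by the luminal epithelial cells of the mammary gland, which also shed RNA into milk in fat globules and in whole cells.

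The study asked how far RNA in milk stands for RNA of the gland that made it. Of the samples, 6 were vacuum-assisted core biopsies of mammary tissue, 3 taken at day 30 after birth and 3 at day 90, each from a different animal and after that animal's milking on the same day. The other 28 samples came from the milk of the same 6 animals (M1 to M6), which were prime-aged, multiparous mothers nursing sons, and which were sedated and given oxytocin for milking. An animal needed antibiotics after its biopsy, and the sources used here do not say which. These were milk cells (6 animals at each day), milk fat (M1, M2, M3 and M6 at day 30 and all 6 animals at day 90) and cell-free milk (6 animals at day 90). The paper states that some day 30 milk RNA was of too low an integrity to be sequenced. It also reports lower RNA integrity in macaque milk fat than in milk cells or mammary tissue. RNA integrity entered no fit here, and its part in the LGB2 values was not tested. The labels of the samples taken as cell-free milk read FatS10 in 4 animals, FatsS10 in M4 and Skim10m in M3, and every value under that name depends on this reading of the labels. A biopsy also contains cells that make no milk, and in bulk samples fewer cells of a type and less RNA per cell cannot be told apart.

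Levels are given in FPKM, fragments per kilobase of transcript and per total of mapped fragments, as estimated by the authors. Each value is the mean of 3 technical runs. Because FPKM are divided by transcript length, levels of different transcripts can be set side by side. This is less sure for the shortest, since some loci, of 92 to 94 bases, are shorter than the 100-base reads. FPKM hold no read counts, so depth was estimated only relative to the median sample, and it ranged from 0.741 to 1.63. The libraries were sequenced in 3 pools that follow the animals, apart from the biopsy of M5. The day 30 milk fat sample of M6 stood apart: transcripts with a locus under 200 bases took 30.7% of its summed FPKM, against 1.22% to 8.74% in the other 33 samples. The summed FPKM of the 4 transcripts tied to PLIN2, which coats lipid droplets, was 26029 or higher in every milk fat sample and 24567 or lower in every other sample. These transcripts were tied to that name by their mean levels in the series, so the values are no independent check of the labels.

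In the biopsies, LGB2 was measured at 47555 FPKM in M3, 64378 in M4 and 75611 in M6 at day 30. At day 90 it was 35471 in M1, 49399 in M2 and 87398 in M5. The biopsies of M1, M2, M3 and M4 lay below every milk fat sample, and the other 2 lay within the range of milk fat. Over all 28 milk samples, which ranged from 44819 to 105016 FPKM, only the biopsy of M1 lay outside the range. The mean over the 6 biopsies was 59968 ± 19403 FPKM (SD, n = 6).

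In milk cells at day 30, LGB2 ranged from 44819 FPKM in M2 through a median of 75237 to 92159 in M3. At day 90 it ranged from 60890 in M2 through a median of 72096 to 104768 in M5. The 12 samples had a mean of 73866 ± 15275 FPKM (SD), and M2 was the lowest animal at both days.

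In milk fat at day 30, LGB2 was at 65292 FPKM in M1, 68683 in M2, 66616 in M3 and 68521 in M6. These 4 values had a coefficient of variation of 2.41%, against 15.7% to 46.8% in the other 6 combinations of sample type and day. After scaling between samples it was 19.6%, the same as at day 90 and above the 9.02% of day 30 biopsies. At day 90 milk fat ranged from 71096 FPKM in M3 through a median of 86102 to 103883 in M4, so that on FPKM as deposited each day 90 value lay above each day 30 value. On scaled FPKM the days overlapped, with 76575 in M3 at day 30 and 75736 in M6 at day 90. The mean over the 10 milk fat samples was 79422 ± 14685 FPKM (SD).

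In cell-free milk, LGB2 ranged from 66078 FPKM in M4 through a median of 75503 to 105016 in M5, with a mean of 78293 ± 14169 FPKM (SD, n = 6). The order of the means was milk fat, cell-free milk, milk cells and biopsy. Between neighbours in this order, limma called no difference in LGB2 in the tests given further on. Those tests used scaled log2 values without pairing, and day 90 alone where cell-free milk entered, so they do not test this order itself. The technical runs of a sample had coefficients of variation of 0.112% to 2.54%. On the log2 scale the SD between animals within a sample type and day was 0.40 for scaled FPKM, against 0.01 between runs without scaling. The SD of 0.40 thus includes spread of the scaling factors.

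**Figure D1:**
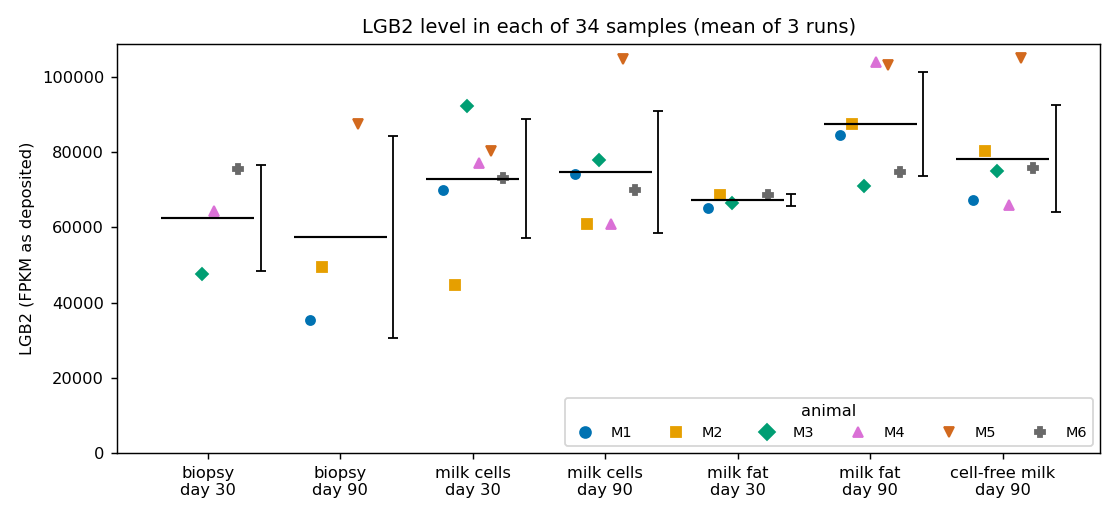
LGB2 level in FPKM as deposited (vertical axis, from 0) for each of 34 samples, grouped by sample type and day, with 1 marker per animal, horizontal lines at group means and error bars of 1 SD. The biopsies of M1, M2 and M3 are the lowest of the 6, and day 30 milk fat spans 65292 to 68683 FPKM before scaling.

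The transcripts above LGB2 differed between tissue and milk. The larger of the CSN2 transcripts, which encode beta-casein, was first in all 34 samples. LALBA encodes alpha-lactalbumin, the whey protein that directs lactose synthesis, and it stood above LGB2 in 0 of 6 biopsies but in 10 of 12 milk cell samples, 10 of 10 milk fat samples and 6 of 6 cell-free milk samples. CSN3, which encodes the micelle-stabilising kappa-casein, stood above LGB2 in 3 of 6 biopsies and in 2 of 28 milk samples. LGB2 had rank 6 in the day 30 milk fat of M6, where 3 transcripts with loci of 92 to 94 bases took ranks 2 to 4. Where it had rank 5, in the day 30 milk fat of M3, 2 PLIN2 transcripts stood above it.

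Within 100000 bases of the locus on either side, 16 other transcripts were listed, 5 at lower and 11 at higher coordinates. The 5 at lower coordinates had means over the 34 samples of at most 0.00422 FPKM, the nearest of them 37083 bases away. At higher coordinates the nearest transcript began 19748 bases beyond the end of LGB2, and 8 transcripts had a mean of at least 1 FPKM. The highest mean among these neighbours was 74.4 FPKM (ENSMMUT00000025172), 993 times below the mean of LGB2. A second neighbour, ENSMMUT00000047128, averaged 65.1 FPKM in biopsies, 36.4 in milk cells and 60.0 in milk fat. The plot of mean level against distance shows LGB2 as the single transcript above 100 FPKM in this stretch of chromosome 15.

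**Figure D2:**
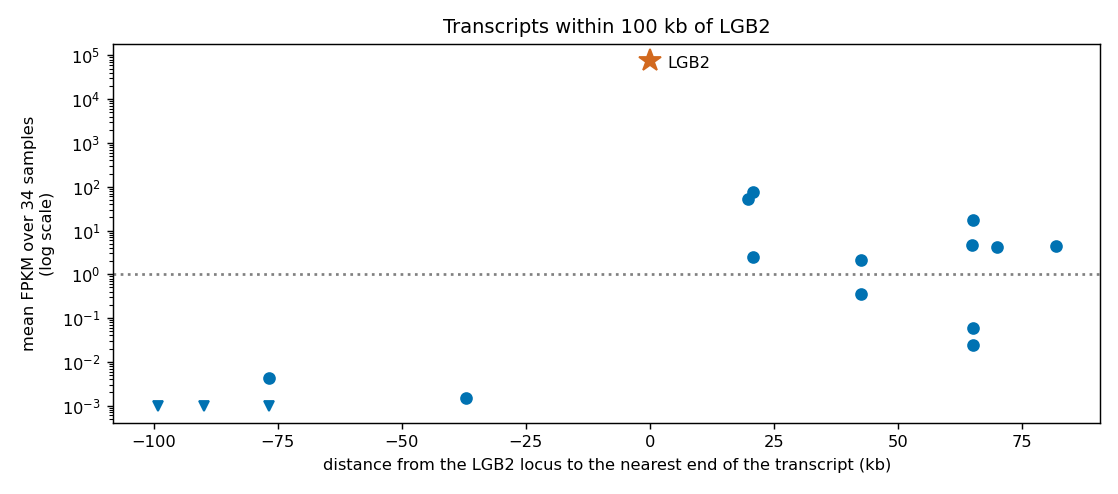
Mean FPKM over 34 samples (log scale) of LGB2 (star) and of the 16 other transcripts within 100 kb, against their distance from the LGB2 locus in kb, with negative distances at lower coordinates. Triangles stand at 0.001 FPKM for 3 transcripts with lower means, the dotted line marks 1 FPKM, and LGB2 lies 993 times above the highest neighbour.

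For the comparisons of level, FPKM were scaled so that the typical transcript was equal between samples, 1 was added and log2 values were tested with limma over all transcripts with a mean of at least 1 FPKM. In milk fat against biopsy, LGB2 was higher by 0.30 ± 0.21 on the log2 scale (SE, 6 animals, 95% confidence interval −0.16 to 0.77), with a limma adjusted p of 0.243. This did not pass the threshold of 0.05, in a comparison in which 55.0% of the 13413 transcripts tested did (29.9% higher and 25.0% lower in milk fat). The animal differences on the same scale were 0.44 in M1 and −0.04 in M2 of pool 2, 0.23 in M3 and 1.10 in M4 of pool 3, and 0.06 in M6 of pool 4. In M5, with its biopsy in pool 3 and its milk in pool 4, it was 0.04. The difference was thus positive in 5 of 6 animals, and M4 alone exceeded 1. M4 had a biopsy of day 30 but milk fat of day 90 alone. On the day of the biopsy, milk fat stood at 16.36 against 15.63 in M1, 16.32 against 15.99 in M2 and 16.22 against 16.07 in M3. It stood at 16.59 against 16.56 in M5 and at 16.04 against 16.06 in M6. Compared with the averaged days, the sign thus turned to positive in M2 and to negative in M6. Without scaling, LGB2 was higher in milk fat by 0.52, with a limma adjusted p of 0.0650, while the median difference of all tested transcripts moved from 0.07 to 0.23.

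Against the biopsies, LGB2 in milk cells differed by 0.06 ± 0.26 on the log2 scale (SE, 95% confidence interval −0.50 to 0.62, limma adjusted p = 0.872), with 43.0% of 14172 transcripts called (21.5% in each direction). It was higher in 4 animals and lower in M2 and M5. On FPKM as deposited the difference was 0.34 (limma adjusted p = 0.24). Milk fat and milk cells differed by 0.25 ± 0.27 (SE, 95% confidence interval −0.34 to 0.84, limma adjusted p = 0.485), with 43.7% of 13521 transcripts called. Animals went in both directions here too, from −0.48 in M3 to 0.92 in M4. M4 and M5 entered with milk fat of day 90 alone but milk cells of both days. With 1 animal left out the difference ranged from 0.11 (without M4) through 0.14 (without M2) to 0.39 (without M3).

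In cell-free milk, LGB2 was 0.15 ± 0.19 above the biopsies on the log2 scale (SE, 95% confidence interval −0.26 to 0.55, limma adjusted p = 0.535), a positive difference in 6 of 6 animals with a range of 0.03 to 0.36. All cell-free milk was of day 90, while the biopsies of M3, M4 and M6 were of day 30. On FPKM as deposited the difference was 0.43 (limma adjusted p = 0.11). In that comparison 48.0% of 13700 transcripts were called, 26.5% higher and 21.5% lower. At day 90, cell-free milk lay 0.29 ± 0.19 below milk fat (SE, 95% confidence interval of the difference −0.70 to 0.11, limma adjusted p = 0.248), with 30.5% of 12730 transcripts called. The difference was negative in 5 of 6 animals and reached −1.06 in M4, without which it was −0.14. On FPKM as deposited it was −0.16. From milk cells of day 90 it differed by 0.04 ± 0.25 (SE, 95% confidence interval −0.51 to 0.58, limma adjusted p = 0.957), with 1.21% of 13371 transcripts called. The 3 comparisons with tissue share their biopsies. Of the 6 limma tests between sample types, all fitted without pairing by animal, 0 called LGB2 and 0 gave it an unadjusted p under 0.05. Their intervals reached from −0.70 to 0.84 on the log2 scale. Being unpaired, they do not measure the spread of the differences within animals. For cell-free milk against biopsy, the limma adjusted p lay between 0.110 and 0.707 over all alternatives, animal as a block among them.

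**Figure D3:**
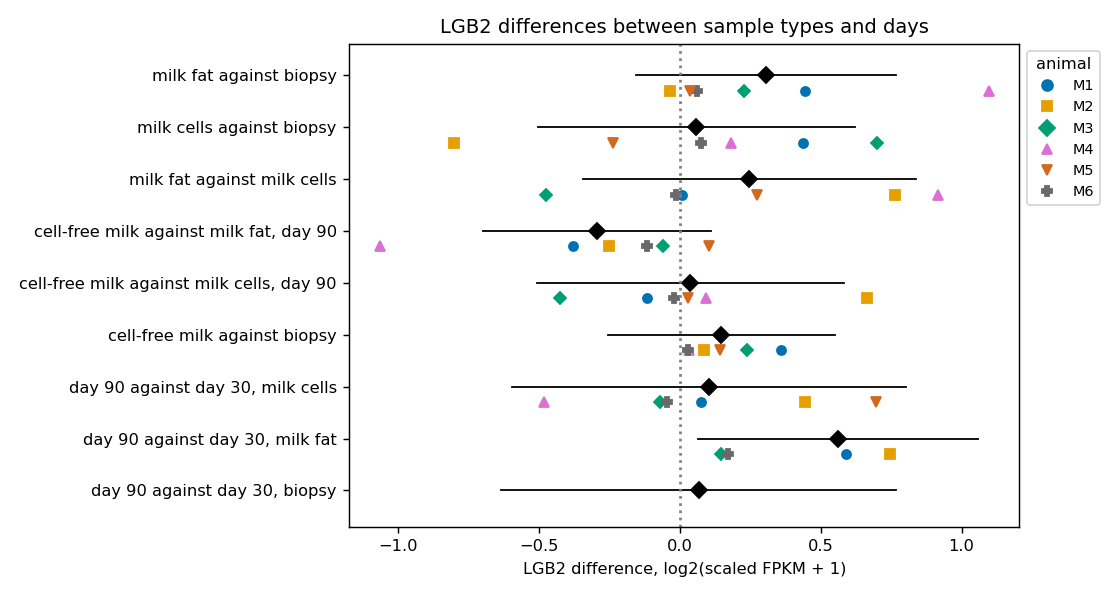
LGB2 differences in log2(scaled FPKM + 1), as the first-named sample type or day minus the second, with diamonds at the limma estimate, lines for 95% confidence intervals and small markers for single animals. The interval of day 90 against day 30 in milk fat is the only one that lies above 0, from 0.07 to 1.06, and its limma adjusted p was 0.915. M4 and M5 enter that comparison with day 90 alone.

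For other transcripts of secreted milk proteins, calls by limma were counted over a list. The list held 8 of them, the 3 casein transcripts together with LALBA, LYZ (lysozyme), LTF (lactoferrin), GLYCAM1 (a mucin-like glycoprotein) and SPP1 (osteopontin). In milk fat against biopsy, limma called 2 of the 8 higher (LALBA and GLYCAM1), 3 lower (the larger CSN2 transcript, CSN3 and LTF) and 3 in neither direction, and the median log2 difference over the 8 was 0.08. Of all transcripts tested there, 55.0% were called, so 5 of 8 is close to the background. LALBA rose by 1.05 ± 0.21 on the log2 scale (SE, limma adjusted p = 0.00103). The larger CSN2 transcript fell by 0.94 ± 0.31 (SE, limma adjusted p = 0.0219), while the smaller one differed by 0.57 ± 0.34 in the other direction (SE, limma adjusted p = 0.177). LTF fell by 1.25 ± 0.27 (SE, limma adjusted p = 0.00188). In milk cells against biopsy only LALBA (0.88 ± 0.32, limma adjusted p = 0.0390) and LTF (−1.40 ± 0.28, limma adjusted p = 0.00154) were called among the 8, against 43.0% of all transcripts. In cell-free milk against biopsy LALBA and LYZ were called higher and LTF lower, 3 of 8 against 48.0% of all transcripts. In milk fat against milk cells limma called 0 of the 8, against 43.7% of all transcripts. At day 90 it called 0 of the 8 in cell-free milk against milk fat, where 30.5% of all transcripts were called. Against milk cells of day 90 it also called 0 of the 8, with 1.21% of all transcripts called. Between days it called 0 of the 8, against 5.10% of all transcripts in milk cells and 0% in both milk fat and biopsies. At an unadjusted p under 0.05 it had GLYCAM1 in milk fat against milk cells, LTF between days of milk cells, and LTF and CSN3 between days of milk fat. Members called under this scaling were called in the same direction on FPKM as deposited. There limma also called LYZ higher than in biopsies in milk fat (0.82, adjusted p = 0.0329) and milk cells (1.07, adjusted p = 0.0142), and GLYCAM1 was called with a higher level in milk fat than milk cells (0.59, adjusted p = 0.0419).

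Beside these values, B2M, the light chain of class I major histocompatibility molecules carried by most nucleated cells, was lower in milk fat than in biopsies by 1.22 ± 0.23 on the log2 scale (SE, limma adjusted p = 6.2e-04). In cell-free milk it was lower than in biopsies too, by 0.98 ± 0.20 (SE, limma adjusted p = 0.00145). In milk cells it differed from the biopsies by −0.14 ± 0.26 (SE, limma adjusted p = 0.682), and by 0.14 on FPKM as deposited. The part of cell makeup in the LGB2 values was not tested.

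The ratio of LGB2 to LALBA, taken within each sample and so free of any scaling between samples, separated tissue from milk. In the biopsies it was 1.46 in M3, 1.17 in M4, 1.28 in M6, 1.28 in M1, 1.49 in M2 and 1.15 in M5. In the 28 milk samples it ranged from 0.477 through a median of 0.740 to 1.02. No milk sample reached the lowest biopsy. LALBA itself ranged from 27654 to 75671 FPKM in biopsies and from 59683 to 193091 FPKM in milk, so that the level of LALBA alone did overlap.

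The geometric mean ratio to LALBA was 1.30 in biopsies and 0.778 in milk fat, 0.598-fold as high, a difference of −0.74 ± 0.41 on the log2 scale (SD, n = 6). In milk cells it was 0.735, or 0.565-fold as high (−0.82 ± 0.38), and in cell-free milk 0.776, or 0.596-fold as high (−0.75 ± 0.39). Each of the 3 differences was negative in 6 of 6 animals. In 5 of them biopsy and milk were sequenced in the same pool, and in M5 the biopsy was in pool 3 and the milk in pool 4. The exact sign-flip permutation test (two-sided) gave p = 0.03125 for each, which is the smallest that 6 animals allow, and an adjusted p of 0.125 over the 24 tests of share and ratios. The 3 comparisons share the biopsies, and after adjustment none passed 0.05. With day 90 milk alone the differences were −0.73 for milk fat and −0.63 for milk cells.

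Among milk fractions the ratio to LALBA differed little. Milk fat differed from milk cells by 0.08 ± 0.15 on the log2 scale (SD, n = 6, exact sign-flip permutation p = 0.25), with opposite sign, −0.10, in day 90 milk alone. Cell-free milk at day 90 differed from milk fat by −0.01 ± 0.13 (exact sign-flip permutation p = 0.781, n = 6) and from milk cells by −0.12 ± 0.09 (exact sign-flip permutation p = 0.0625, n = 6, adjusted p = 0.188).

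The ratio of LGB2 to the summed FPKM of the CSN2 and CSN3 transcripts went the other way. In the biopsies it was 0.0622 in M3, 0.125 in M4, 0.171 in M6, 0.0477 in M1, 0.0724 in M2 and 0.159 in M5. It ranged from 0.0977 to 0.216 in milk cells and from 0.112 to 0.205 in cell-free milk. Milk fat reached higher, from 0.148 to 0.273. The biopsies of M1, M2 and M3 lay below all 28 milk samples, whereas the other 3 lay among them.

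The geometric mean ratio to casein was 0.208 in milk fat and 0.0948 in biopsies, 2.19-fold higher in milk fat, but with a log2 difference of 1.13 ± 0.83 (SD) that was positive in 5 of 6 animals (exact sign-flip permutation p = 0.0625, n = 6, adjusted p = 0.188). Within milk, the ratio was 1.42-fold higher in fat than in cells, in 6 of 6 animals (0.50 ± 0.42 on the log2 scale, exact sign-flip permutation p = 0.03125, n = 6, adjusted p = 0.125). At day 90 it was 0.742-fold as high in cell-free milk as in milk fat, lower in 6 of 6 animals (−0.43 ± 0.47 on the log2 scale, exact sign-flip permutation p = 0.03125, n = 6, adjusted p = 0.125). Milk cells differed from biopsies by 0.63 ± 0.80, cell-free milk from biopsies by 0.67 ± 0.75 and cell-free milk from milk cells by 0.11 ± 0.16 on the log2 scale, with adjusted p from exact sign-flip permutation tests (n = 6) of 0.375, 0.3 and 0.341.

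**Figure D4:**
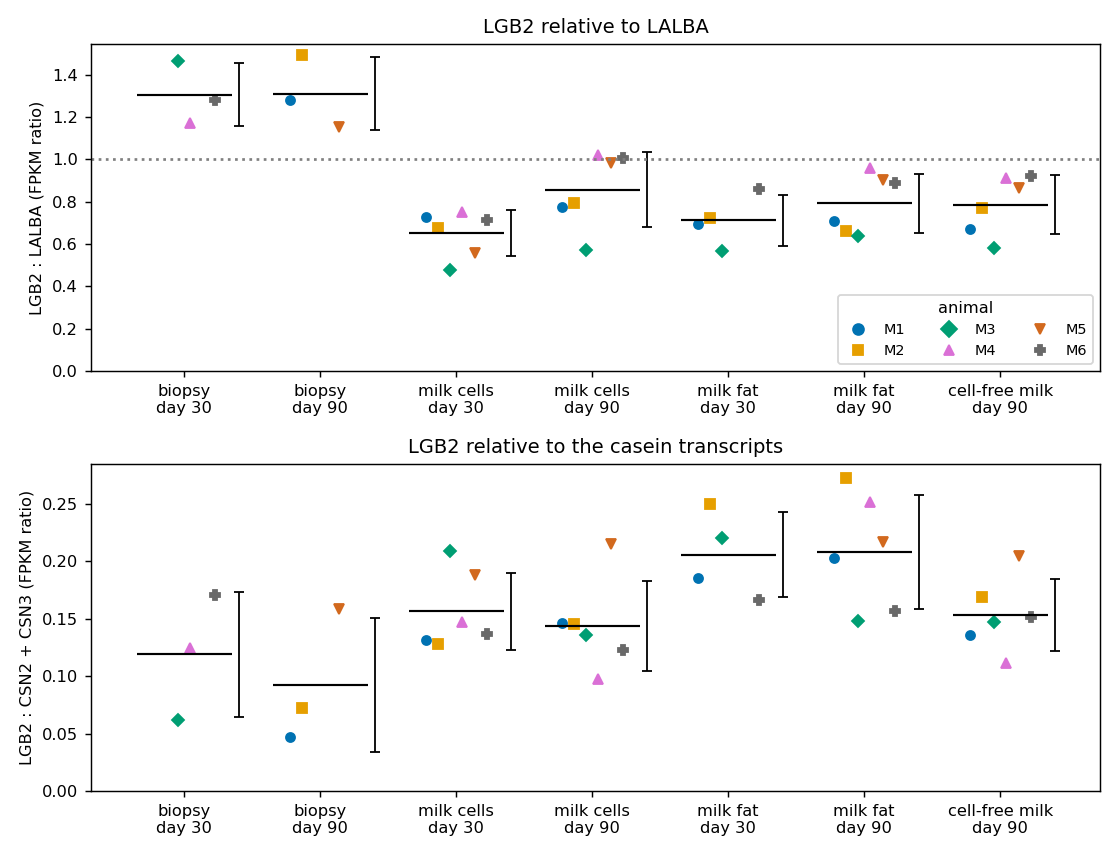
Ratio of LGB2 FPKM to LALBA FPKM (top) and to the summed FPKM of the CSN2 and CSN3 transcripts (bottom) for each sample by type and day, with 1 marker per animal, lines at group means and error bars of 1 SD. All 6 biopsies lie above the dotted line at a ratio of 1 and above all 28 milk samples in the top panel, and the biopsies of M1, M2 and M3 lie below all milk samples in the bottom panel.

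As a share of the summed FPKM of all transcripts, LGB2 took 3.36% to 8.74% in biopsies and 4.68% to 10.3% in milk cells. In milk fat it took 4.96% to 9.11%. Cell-free milk lay between 6.05% and 9.39%. The mean over 34 samples was 6.82%. The difference of milk fat from biopsy was 1.17 ± 2.04 percentage points (SD, n = 6, exact sign-flip permutation p = 0.219, adjusted p = 0.375), and the differences of milk cells and cell-free milk from biopsy were 0.926 ± 1.96 and 1.10 ± 1.74 percentage points. The CSN2 transcripts are part of this total, and the larger of them averaged 48.2% of summed FPKM in biopsies against 36.0% in milk cells and 24.8% in milk fat. Without the CSN2 transcripts in the total, LGB2 averaged 12.5% in biopsies, 12.3% in cell-free milk, 12.1% in milk cells and 9.91% in milk fat. The difference of milk fat from biopsy then changed sign to −1.88 percentage points (exact sign-flip permutation p = 0.0938, n = 6). For the differences an animal's days were averaged first, whereas the average shares were taken over samples.

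**Figure D5:**
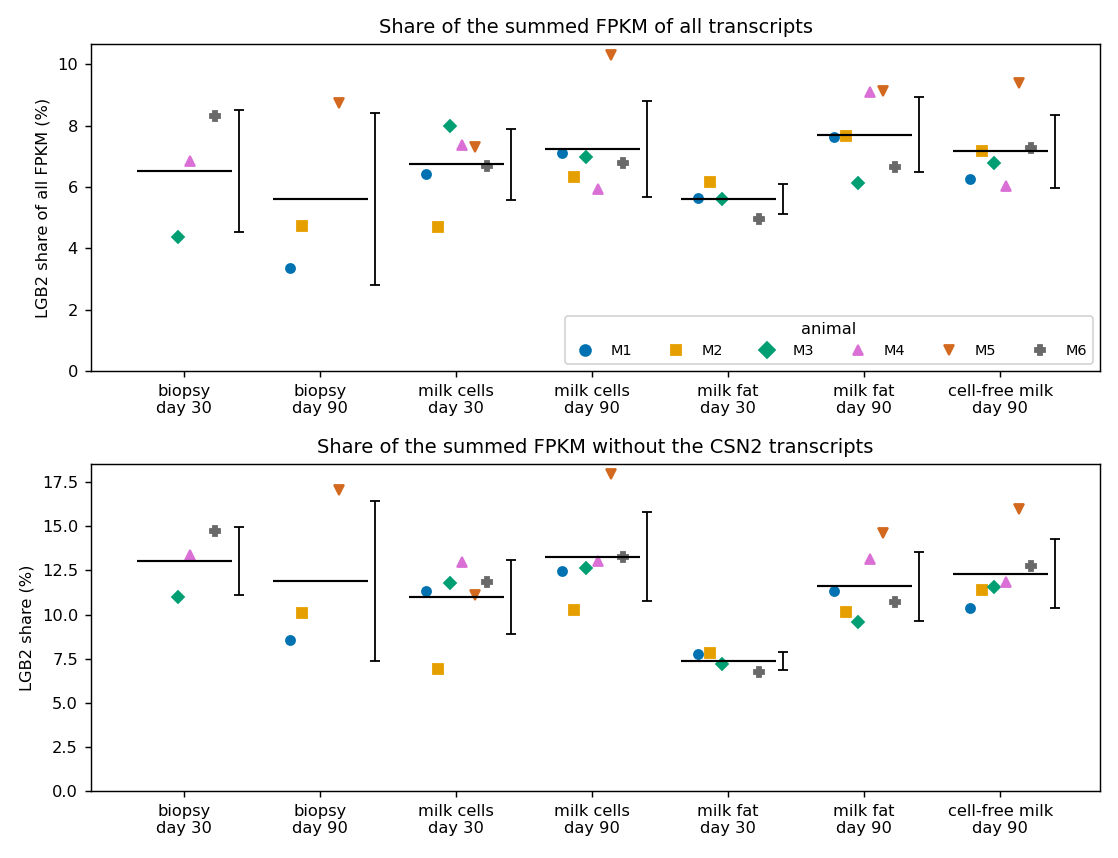
LGB2 as a percentage of the summed FPKM of all transcripts (top) and of the sum without the CSN2 transcripts (bottom) for each sample by type and day, with 1 marker per animal, lines at group means and error bars of 1 SD. Over the samples of both days, for which no line is drawn, milk fat averages 6.86% in the top panel, above the biopsies at 6.06%. In the bottom panel it averages 9.91%, below the biopsies at 12.5%.

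Over lactation, LGB2 in milk fat was 0.56 ± 0.22 higher at day 90 than at day 30 on the log2 scale (SE, 6 samples against 4, 95% confidence interval 0.07 to 1.06). It was higher in each of the 4 animals with both days, by 0.59 in M1, 0.74 in M2, 0.15 in M3 and 0.17 in M6. The estimate of 0.56 also takes in M4 and M5, which had milk fat of day 90 alone. Their scaled values were the highest of that day, 16.9 and 16.6 on the log2 scale. With animal as a block the estimate was smaller, as given further on. The limma adjusted p was 0.915, in a comparison in which limma called 0 of 12609 transcripts (0%) and 661 had an unadjusted p under 0.05, that of LGB2 being 0.0299. Without the day 30 sample of M6 the difference was 0.61, and on FPKM as deposited it was 0.36 (limma adjusted p = 0.844). Beside this, the share of summed FPKM in loci under 200 bases fell from day 30 to day 90 in M1 (7.56% to 3.02%), M2 (8.74% to 3.85%) and M6 (30.7% to 3.66%) and rose in M3 (2.55% to 3.35%), and its part in the LGB2 difference was not tested. The share of summed FPKM rose in the same 4 of 4 pairs by 1.42 ± 0.639 percentage points (SD), where the exact sign-flip permutation p of 0.125 is the smallest that 4 pairs allow. The rise was 0.822 percentage points with loci under 200 bases left out of the total and 3.05 with the CSN2 transcripts left out.

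In milk cells, the day 90 level of LGB2 differed from that of day 30 by 0.10 ± 0.32 on the log2 scale (SE, 95% confidence interval −0.60 to 0.80, limma adjusted p = 0.862), with 5.10% of 13815 transcripts called. It was higher at day 90 in M1, M2 and M5 and lower in M3, M4 and M6. The ratio to LALBA, by contrast, was higher at day 90 in 6 of 6 animals, from a geometric mean of 0.643 to 0.840, by 0.39 ± 0.26 on the log2 scale (SD, exact sign-flip permutation p = 0.03125, n = 6, adjusted p = 0.125). In milk fat the ratio to LALBA differed between days by 0.03 ± 0.12 (SD), with a higher value at day 90 in 3 of 4 animals. Whether the change of the ratio differs between milk cells and milk fat was not tested. Without the CSN2 transcripts in the total, the LGB2 share in milk cells was 2.28 percentage points higher at day 90 (exact sign-flip permutation p = 0.03125, n = 6, adjusted p = 0.107), against 0.495 ± 1.65 with them.

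The biopsies of day 90 and day 30 came from different animals and differed in LGB2 by 0.07 ± 0.29 on the log2 scale (SE, 3 against 3, 95% confidence interval −0.63 to 0.77, limma adjusted p = 0.979). Limma called 0 of 13762 transcripts (0%) in this comparison, and 441 had an unadjusted p under 0.05. Day and animal cannot be told apart there, and with pool as a term the difference was 0.60.

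Animals kept no single order over the sample types. On scaled values M5 was the highest animal in biopsies and in cell-free milk, M3 in milk cells and M4 in milk fat. On FPKM as deposited, M5 was the highest of 6 in cell-free milk, in day 90 milk cells and among biopsies, while in day 90 milk fat it had 103104 FPKM against 103883 in M4. The scaling factors ranged from 0.691 to 1.40, with 1.40 for both milk cell samples and the day 30 milk fat of M2 and factors under 1 for every sample of M3. The order of animals thus depends on the scaling.

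The level of an animal's biopsy correlated with its cell-free milk (r = 0.91, exact permutation p = 0.0194, n = 6, rho = 0.94, exact permutation p = 0.0167), with an adjusted p of 0.136 for r and 0.117 for rho over the 7 relations computed. Without the 2 animals farthest from the median biopsy, M1 and M5, r was 0.88 over 4 animals. The relation was weaker on FPKM as deposited (r = 0.62, exact permutation p = 0.176, n = 6), where r was −0.39 without M1 and M5, so there it rests on these 2 animals. Each pool held 2 animals, too few for a value within pools. For the other 6 relations r lay between −0.09 (milk fat with cell-free milk, day 90) and 0.73 (milk cells at day 30 with day 90, and milk cells with cell-free milk), with exact permutation p from 0.0931 to 0.857 (n = 6) and rho between −0.09 and 0.77. Without the 2 animals farthest from the median, the relation of milk cells between days turned to −0.86 and thus rests on M2 and M3.

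To ask which transcripts varied most like LGB2, log2 values were centred on each sample type and day and correlated over the 34 samples, for 4033 other transcripts with a mean of at least 10 FPKM. The 34 samples come from 6 animals and share their scaling, so these values are a description. The highest correlations were those of ENSMMUT00000018635 (r = 0.89), ENSMMUT00000004771 (r = 0.88) and LALBA (r = 0.87), the last with rank 3 of 4033. The median over all of them was 0.21. Among the other milk protein transcripts r was 0.67 for the smaller CSN2 transcript, 0.65 for LTF, 0.64 for GLYCAM1, 0.47 for CSN3, 0.46 for LYZ, 0.40 for the larger CSN2 transcript and −0.04 for SPP1. CD24, a surface antigen of luminal cells, stood at 0.71, B2M at −0.13 and the 4 PLIN2 transcripts between 0.17 and 0.19. The lowest correlations were those of ENSMMUT00000021958 and ENSMMUT00000016856, both at −0.77. On FPKM as deposited r was 0.79 for LALBA (rank 5) and 0.61 for the smaller CSN2 transcript, but −0.33 for the larger CSN2 transcript and −0.24 for CSN3, so the sign for these 2 caseins depends on the scaling. So does that of PLIN2, whose 4 transcripts then lay between −0.19 and −0.08, while CD24 stood at 0.42, LYZ at 0.16, SPP1 at −0.37 and B2M at −0.47. ENSMMUT00000021958 then had r = −0.44 and ENSMMUT00000016856 r = −0.49, and neither was among the 2 lowest.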

How the data were processed

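RNA of the 34 samples was sequenced by the authors as 100-base reads from poly(A)-selected libraries, with 3 technical runs per sample. Reads were trimmed, aligned to rheMac2 (TopHat, Bowtie) and turned by the authors into FPKM per Ensembl transcript (release 67) with Cufflinks. The deposited table holds these FPKM. Cufflinks divides reads between overlapping transcripts. Versions of these tools are not given in the sources used here. The file also held 6 columns whose names match no sample of the series, and they were not used.

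Runs were averaged to samples. No 2 columns were identical (0 found). Samples were brought to a common scale with median-of-ratios factors from the 21792 transcripts above 0 in all samples, and log2(scaled FPKM + 1) was analysed with limma 3.58.1 in R 4.3.3 (trend in the prior variance, two-sided, Benjamini-Hochberg adjustment over all transcripts tested, no block). A pseudocount of 1 hardly touches LGB2. An animal's days were averaged on the log2 scale where sample types were compared. For shares and log2 ratios, the signs of the animals' differences were flipped in every combination (exact permutation, 24 tests), and levels of animals were related by exact permutation over 7 relations. With the runs averaged, p-values measure the spread between animals. The analyses were tested on simulated data.

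Samples were paired by animal through the labels. Deviations from the group means correlated within animals at 0.21 to 0.57 on average, with a lowest single value of 0.12, over 4034 transcripts.

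Other milk protein names were tied to identifiers by the closest mean FPKM in the study's tables. Named were LGB2, overlapping transcripts, transcripts within 100000 bases, listed milk proteins and the 3 most and 2 least alike in pattern. Alternatives covered scaling, pseudocount, filter, block, pool, trend, day and animals left out. The transcript and the lists were chosen with earlier results of these data known. Counts of reads were not used here.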

Additional observations from a re-analysis of the deposited data

Results flagged for a closer look

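Within 6 groups of 4 to 6 samples, 5 LGB2 measures each were examined for a sample far from the others, 30 cases in all, and 3 stood out, each of them from M5. Chance flags about 1 in 20 such cases. In cell-free milk, the LGB2 level of M5 was 105016 FPKM, with the other 5 animals between 66078 and 80335 FPKM. Its share of summed FPKM in cell-free milk was 9.39%, with the others between 6.05% and 7.28%. In day 90 milk cells its share was 10.3%, with the others between 5.92% and 7.11%.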

How the results depend on the processing

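In the main fits, without pairing by animal, limma called LGB2 in 0 of the 9 comparisons. There 1 of 9, the days of milk fat, had an unadjusted p under 0.05. Of the 93 alternative settings and the 54 fits with 1 animal left out, 0 changed a call. Animal as a block gave 0.30 for milk fat against biopsy (limma adjusted p = 0.237) and 0.41 for the days of milk fat (limma adjusted p = 0.580), and the paired fits changed no call. Differences near 0 changed sign: cell-free milk against milk cells was −4.2e-04 after scaling to the 75th percentile, and biopsies of day 90 against day 30 differed by −0.20 on FPKM as deposited. With 1 animal left out, the ranges were −0.0699 to 0.23 for milk cells against biopsy, −0.0883 to 0.13 for cell-free milk against milk cells, −0.0159 to 0.22 for the days of milk cells and −0.18 to 0.28 for the days of biopsies. The sign changed without M1 or M3 in the first, M2 in the second, M5 in the third and M4 or M5 in the last. Cell-free milk against milk fat ranged from −0.37 to −0.14. Pool as a term gave 0.60 for the days of biopsies. Milk fat against biopsy ranged from 0.15 (without M4) to 0.37, with adjusted p over all its alternatives from 0.0650 to 0.568. Without the CSN2 transcripts in the total, the share differences in percentage points were −1.88 for milk fat against biopsy, −0.333 for milk cells against biopsy, −1.55 for milk fat against milk cells, 0.720 for cell-free milk against milk fat and −0.148 for cell-free milk against biopsy, all of opposite sign to those with them. The LGB2 to LALBA ratio of milk fat against milk cells was −0.10 in day 90 milk, of opposite sign. The other 23 alternative settings for ratios kept their direction. With 1 animal left out, 3 ratio differences near 0 changed sign, always without M3: those to LALBA of cell-free milk against milk fat (−0.0616 to 0.00889) and of the days of milk fat (−0.0150 to 0.0815), and that to casein of the days of milk fat (−0.181 to 0.0533). Shares of milk fat against milk cells ranged from −0.191 to 0.621 percentage points and of cell-free milk against milk cells from −0.261 to 0.0845. Likeness to LGB2 of the 2 least alike transcripts moved in 3 of its settings, to −0.48 without subtracting group means and to −0.44 and −0.49 on FPKM as deposited. For levels of animals, r of milk fat with cell-free milk turned to 0.278 on FPKM as deposited and 0.227 on shares, and with 1 animal left out it ranged from −0.624 to 0.846, that of milk cells with milk fat from −0.163 to 0.662 and that of biopsy with milk fat from −0.121 to 0.818. The cause of these changes was not tested, beyond the removal of the CSN2 transcripts from the total. Milk of the day of the biopsy, and leaving out the day 30 milk fat of M6, were chosen after seeing the data.

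With no filter on low FPKM the variance trend of limma gave LGB2 an error of 3.71 to 59.6 on the log2 scale, so that setting was not read. The sum over transcripts of the locus could not differ, since no other transcript overlaps it. FPKM carry no counts, so counting error could not be given, and 6 animals limit the precision.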

Other observations

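The ratio of LGB2 to LALBA was also set side by side between the fractions of each animal, a measure added after seeing the data. In milk cells and cell-free milk of day 90 it ran together over the 6 animals (r = 0.97, exact permutation p = 0.00278, rho = 0.94, exact permutation p = 0.0167, n = 6), and r was 0.93 without M3 and M4, the 2 animals farthest from the median. In biopsy and milk fat it ran in opposite directions (r = −0.87, exact permutation p = 0.0278, rho = −0.89, exact permutation p = 0.0333, n = 6), with r = −0.71 without M2 and M3. Adjusted over all 35 relations of 5 measures, these p were 0.0972 and 0.219 for r and 0.292 and 0.389 for rho, so neither passed 0.05. Among the other relations of this ratio, r was 0.84 for milk cells with milk fat and 0.88 for milk fat with cell-free milk of day 90. Their exact permutation p were 0.0194 and 0.0375 (n = 6), and 0.219 each after the same adjustment. For biopsy with milk cells r was −0.63, for biopsy with cell-free milk −0.65 and for milk cells between days 0.64. M3 had the lowest ratio of the animals measured in each milk fraction and day, from 0.477 in day 30 milk cells to 0.638 in day 90 milk fat, and the second highest among the biopsies, 1.46.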
